A study of Homo sapiens with 47 samples.

Results

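The genes described here encode the pausing factors NELF and DSIF, the cap-binding proteins and ARS2. They are 10 genes taken by symbol from the RNA-seq count table, namely NELFA, NELFB, NELFCD, NELFE, SUPT4H1, SUPT5H, NCBP1, NCBP2, NCBP3 and SRRT (the gene of ARS2). They are 10 of 58395 genes counted, and all 10 were among the 28025 genes that passed edgeR's filter on low counts. Total RNA depleted of ribosomal RNA was sequenced from HEK293T cells, a human embryonic kidney line that carries the SV40 large T antigen, in 3 wild-type libraries and 3 from a line of these cells with mutated EAF1. EAF1 is a partner of the ELL family of elongation factors, and the comparison asks how RNA levels differ when EAF1 carries the mutation. The mutant line is 1 clone made by CRISPR knock-in, in which residues 262 to 265 of EAF1 were replaced by alanine on both alleles, so the mutation and other features of the clone cannot be told apart. Total counts were 59137210, 52541541 and 55637032 for wild-type replicates 1 to 3 and 57198018, 53369621 and 66611451 for EAF1-mutant replicates 1 to 3.

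RNA polymerase II often halts shortly after it starts to transcribe a gene. DSIF, made of SPT4 (SUPT4H1) and SPT5 (SUPT5H), binds the polymerase and, together with the 4 subunits of NELF, holds it at this pause until the kinase P-TEFb phosphorylates both factors, after which NELF leaves and DSIF stays on as an elongation factor. The cap at the 5′ end of the new RNA is bound by the cap-binding complex of NCBP1 and NCBP2, and ARS2 joins this complex to factors that process, export or degrade the transcript.

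The edited site is shown because it defines the comparison. The CRISPR guide lies at chr3:15439114-15439133 (GRCh38, plus strand), and all 20 of its bases fall in the coding part of exon 6, the last exon of EAF1. Below it stands the coding part of that exon in the reference genome up to the codon before the stop, chr3:15439109-15439152. Capitals mark the PAM in the guide line and the codons of residues 262 to 265 in the exon line.
EAF1 guide and PAM: gacttgcagttgagtgagtcTGG
EAF1 exon 6 coding part: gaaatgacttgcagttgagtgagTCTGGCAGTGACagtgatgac

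Levels are given as CPM, the count of a gene as parts per 1000000 of the library total after TMM scaling. The edited gene EAF1 stood at 57.5, 58.4 and 56.5 CPM in the wild-type libraries and at 19.7, 17.9 and 18.8 CPM in the EAF1-mutant libraries. The groups did not overlap, and EAF1 fell (log2 fold change -1.61, 95% interval -1.71 to -1.52, adjusted p = 2.48e-18, edgeR's quasi-likelihood test with Benjamini-Hochberg adjustment). The 84 other tested genes within 5 Mb of EAF1 had a median of -1.41. A point mutation leaves the RNA countable, so this level does not check the labels. CPM are shares of a library: a lower CPM cannot be told apart from more RNA of other genes, nor fewer cells with a transcript from less of it per cell.

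None of the 10 genes passed the thresholds of the study's methods, an adjusted p under 0.01 together with a log2 fold change over 0.5 in size, which 20.3% of all tested genes passed (11% higher and 9.36% lower, edgeR). Over all genes these were 3071 higher and 2624 lower, and 4169 and 1840 with library totals in place of TMM. DESeq2 and limma-voom also placed 0 of the 10 past these thresholds. At an unadjusted p under 0.05, edgeR had 7 of the 10, against 56.2% of all tested genes and 73.6% of those with at least 10 CPM. By the adjusted p alone, 4 of the 10 were higher (NELFB, NELFE, SUPT4H1 and SUPT5H) and 1 was lower (SRRT). With library totals 7 were higher and 0 lower. Over all tested genes 41.5% passed that limit, 20.5% higher and 21.1% lower (8339 and 4138 genes with library totals, in place of 5736 and 5902), and among the 11418 tested genes averaging 10 CPM or more, a limit set after the data were seen, 60.4% passed, 23.8% higher and 36.7% lower. The share of these genes that passed in either direction, 5 of 10, was thus near the background, and with 10 genes the split of 4 higher and 1 lower is given as a count only. The 3 EAF1-mutant libraries lay wholly above or wholly below the wild-type ones for 7 of the 10, against 57.3% of all tested genes and 73.5% of those with at least 10 CPM. The median log2 fold change of the 10 was 0.08, beside 0.01 for all tested genes and -0.05 for those with at least 10 CPM, and single values ran from -0.20 for SRRT to 0.44 for SUPT5H.

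**Figure D1:**
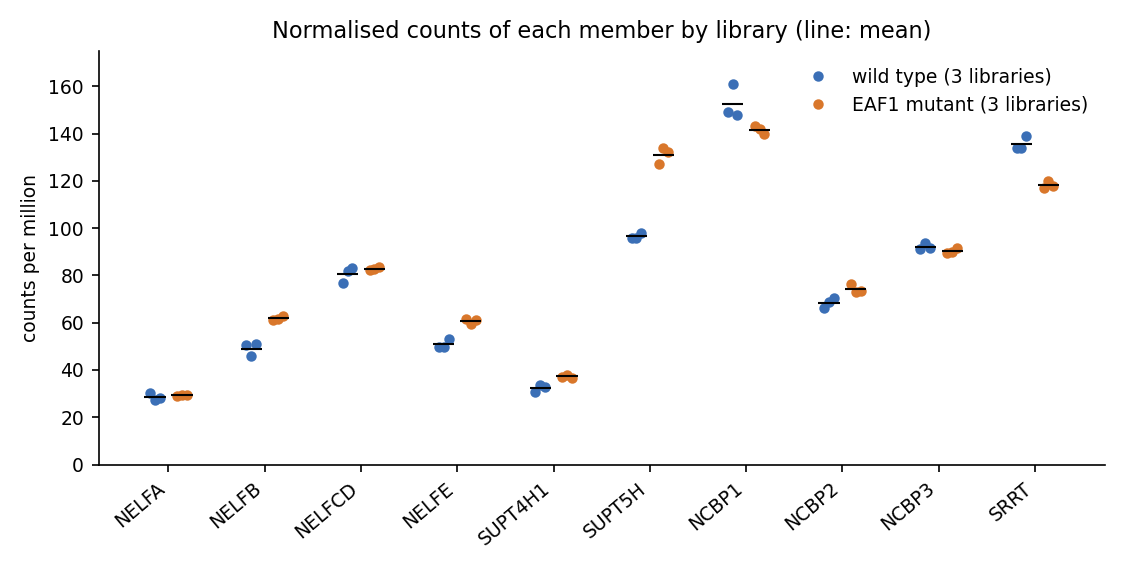
CPM of each of the 10 genes in the 3 wild-type (blue) and 3 EAF1-mutant (orange) libraries, with a line at each mean. SUPT5H stood at 95.8 to 98 CPM in wild-type cells and 127 to 134 CPM in EAF1-mutant cells, while the libraries of NELFA, NELFCD and NCBP3 overlapped between groups.

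Of the NELF genes, NELFB and NELFE rose, and NELFA and NELFCD did not pass the test. NELFB (ENSG00000188986), a scaffold subunit at chr9:137255327-137273542, had 50.6, 45.7 and 50.8 CPM in wild-type cells and 61.1, 61.6 and 63 CPM in EAF1-mutant cells. Every EAF1-mutant library was above every wild-type one, and wild-type replicate 2 was the lowest of all. The log2 fold change was 0.34 (95% interval 0.25 to 0.43, adjusted p = 7.24e-07), a fold of 1.26.

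NELFE (ENSG00000204356, chr6:31952087-31959038) encodes the subunit with an RNA recognition motif. It was counted at 49.6, 49.8 and 53.1 CPM in wild-type and at 61.7, 59.3 and 61.1 CPM in EAF1-mutant libraries. Again the groups were apart, with a gap of several CPM between the highest wild-type and the lowest mutant library. The log2 fold change was 0.26 (95% interval 0.17 to 0.34, adjusted p = 1.31e-05).

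NELFA (ENSG00000185049, chr4:1982717-2041903), which contacts the polymerase, had 30.1, 27.1 and 28 CPM in wild-type libraries and 29.1, 29.6 and 29.5 CPM in EAF1-mutant libraries. NELFCD (ENSG00000101158, chr20:58981208-58995133), a single gene for both the C and D forms of the partner of NELFA, had 76.7, 81.9 and 83 CPM and then 82.4, 82.7 and 83.4 CPM. For both genes the 2 groups overlapped, and the mutant libraries lay inside a narrower range than the wild-type ones. The log2 fold changes were 0.05 (95% interval -0.05 to 0.15, adjusted p = 0.389) and 0.04 (95% interval -0.04 to 0.12, adjusted p = 0.409), so a difference beyond the upper bound of 0.15 lay outside both intervals. The value of NELFCD turned to -0.01 without wild-type replicate 1, and that of NELFA was 0.08, 0.01 and 0.02 without wild-type replicates 1, 2 and 3. With library totals in place of TMM both passed the adjusted p, at 0.17 for NELFA (adjusted p = 0.00406) and 0.16 for NELFCD (adjusted p = 0.00206).

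Ratios of 2 genes within a library need no scaling between libraries. NELFB counts per NELFA count were 1.68, 1.68 and 1.81 in wild-type libraries and 2.1, 2.08 and 2.13 in EAF1-mutant libraries. NELFE counts per NELFA count were 1.65, 1.83 and 1.9, and then 2.12, 2 and 2.07. Both ratios were higher in every EAF1-mutant library, and an exact two-sided permutation test gave p = 0.1 for each, the smallest that 3 against 3 libraries allow. NELFCD per NELFA overlapped (2.55 to 3.02 against 2.79 to 2.83, exact permutation p = 1), as did NELFE per NELFB (0.98 to 1.09 against 0.962 to 1.01, exact permutation p = 0.2).

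Both DSIF genes rose. SUPT5H (ENSG00000196235, chr19:39436156-39476670), whose product SPT5 carries the repeats that P-TEFb phosphorylates, had 95.9, 95.8 and 98 CPM in wild-type libraries and 127, 134 and 132 CPM in EAF1-mutant libraries. The wild-type libraries were close together, and each mutant library was above all of them. The log2 fold change was 0.44 (95% interval 0.37 to 0.52, adjusted p = 5.68e-10), the largest of the 10 genes, and 17.4% of all tested genes had a larger one. With library totals in place of TMM it was 0.56, which passed the fold limit of 0.5.

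SUPT4H1 (ENSG00000213246, chr17:58345175-58353093), the gene of the small zinc-binding subunit SPT4, had 30.8, 33.7 and 32.6 CPM in wild-type libraries and 37, 38 and 36.8 CPM in EAF1-mutant libraries. The groups did not overlap, and the log2 fold change was 0.20 (95% interval 0.11 to 0.30, adjusted p = 0.000467). Of its processed pseudogenes, SUPT4H1P1 was counted at 0.437 and 0.387 mean CPM in the 2 groups and SUPT4H1P2 at 0.0374 and 0.0612, a small part of the parent gene's level. The SUPT5H counts per SUPT4H1 count were 3.11, 2.84 and 3.01 in wild-type and 3.44, 3.53 and 3.58 in EAF1-mutant libraries. The ratio was higher in every mutant library (exact two-sided permutation p = 0.1, the smallest possible, so this test cannot settle a difference). The SUPT4H1 counts may also hold reads of an overlapping antisense gene, described below.

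**Figure D2:**
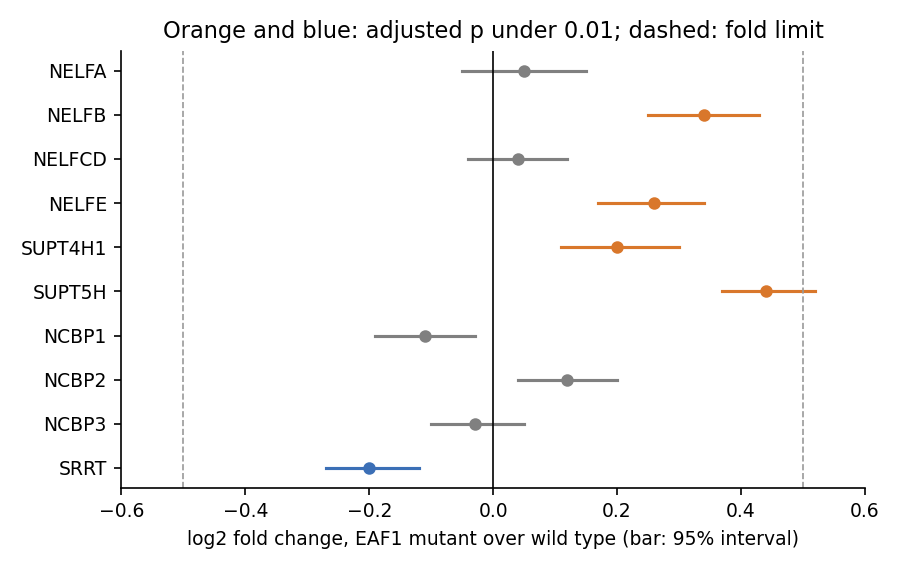
Log2 fold change of each gene, EAF1 mutant over wild type, with its 95% interval from edgeR (3 libraries in each group). NELFB, NELFE, SUPT4H1 and SUPT5H (orange) were higher and SRRT (blue) lower at an adjusted p under 0.01, and no point lay beyond the dashed fold limits of 0.5. With library totals in place of TMM, SUPT5H was at 0.56, NCBP1 at 0.01 and NCBP3 at 0.09.

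Of the cap-binding proteins, none passed the test. NCBP1 (ENSG00000136937, chr9:97633668-97673748), the large subunit CBP80, had 149, 161 and 148 CPM in wild-type libraries and 143, 142 and 140 CPM in EAF1-mutant libraries. NCBP2 (ENSG00000114503, chr3:196935402-196942594), the small subunit CBP20 that holds the cap, had 66.3, 68.9 and 70.3 CPM and then 76.4, 72.8 and 73.5 CPM. The groups of both genes were apart, in opposite directions, but by small amounts. The log2 fold changes were -0.11 for NCBP1 (95% interval -0.19 to -0.03, adjusted p = 0.0198) and 0.12 for NCBP2 (95% interval 0.04 to 0.20, adjusted p = 0.016), both short of the limit of 0.01. For NCBP1 the call depended on single libraries: it passed without wild-type replicate 1 (-0.14, adjusted p = 0.00641) and without wild-type replicate 3 (-0.15, adjusted p = 0.00772), but not without wild-type replicate 2 (-0.08, adjusted p = 0.0579) or EAF1-mutant replicates 1, 2 or 3 (adjusted p of 0.0318, 0.0521 and 0.0899), and with library totals alone its value turned to 0.01. NCBP2 passed with library totals (0.23, adjusted p = 3.03e-05) and was at 0.08 (adjusted p = 0.113) without wild-type replicate 1.

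NCBP3 (ENSG00000074356, chr17:3802158-3846246), a protein described as an alternative partner of NCBP1, had 91, 93.8 and 91.6 CPM in wild-type and 89.4, 89.9 and 91.7 CPM in EAF1-mutant libraries. The groups overlapped (log2 fold change -0.03, 95% interval -0.10 to 0.05, adjusted p = 0.548), the value ran from -0.05 to -0.02 with 1 library left out, and the sign turned with library totals, to 0.09. NCBP2 counts per NCBP1 count were 0.444, 0.428 and 0.474 in wild-type and 0.534, 0.514 and 0.525 in EAF1-mutant libraries. That ratio was higher in all 3 mutant libraries, as was NCBP3 per NCBP1 (0.583 to 0.618 against 0.625 to 0.655), while NCBP3 per NCBP2 was lower in all of them (1.3 to 1.37 against 1.17 to 1.25). Each of these gave an exact two-sided permutation p = 0.1, the smallest possible. NCBP2L, a gene similar to NCBP2, was counted at 2.9 and 2.36 mean CPM in the 2 groups (log2 fold change -0.30, adjusted p = 0.0611). Its log2 fold change was -0.43 (adjusted p = 0.00813) without wild-type replicate 2 and -0.18 without wild-type replicate 3.

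SRRT (ENSG00000087087, chr7:100875103-100888664), the gene of ARS2, had 134, 134 and 139 CPM in wild-type libraries and 117, 120 and 118 CPM in EAF1-mutant libraries. Every EAF1-mutant library was below every wild-type one, and with TMM scaling SRRT alone of the 10 genes was lower by the adjusted p. NCBP1 also had every EAF1-mutant library below every wild-type one, but missed that limit. The log2 fold change of SRRT was -0.20 (95% interval -0.27 to -0.12, adjusted p = 7.5e-05). With library totals it was -0.08 (adjusted p = 0.0682) and no longer passed. SRRT per NCBP1 overlapped between groups (0.834 to 0.94 against 0.82 to 0.85, exact permutation p = 0.3). SUPT5H per SRRT moved from 0.714, 0.714 and 0.704 to 1.09, 1.12 and 1.12 (exact two-sided permutation p = 0.1, the smallest possible). SUPT5H and SRRT had the highest and lowest log2 fold changes of the 10 genes, so a shift of their ratio follows from those values. Without TMM the tested genes as a whole had a median of 0.13, and relative to that median the values with library totals were -0.21 for SRRT, -0.12 for NCBP1, 0.04 for NELFA and 0.43 for SUPT5H.

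The depth behind these values was 1372 to 9663 counts per gene and library. Counting alone gives a coefficient of variation of 2.56% at the mean wild-type count of NELFA and 1.11% at that of NCBP1. The observed coefficients of variation among wild-type libraries ran from 1.3% for SUPT5H to 5.9% for NELFB, and among EAF1-mutant libraries from 0.613% for NELFCD to 2.73% for SUPT5H. Among EAF1-mutant libraries, NELFA, NELFB, NELFCD and SUPT4H1 varied less than counting alone gives (1.4% for NELFCD). Among wild-type libraries, SUPT5H did (1.39%). The median standard error of the 10 log2 fold changes was 0.0395, beside 0.0994 for all tested genes and 0.0453 for those with at least 10 CPM.

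Levels of different genes were compared as CPM per kb. With the union of all annotated exons as length, wild-type levels per kb were highest for SRRT (28 ± 0.603, SD, n = 3) and NCBP1 (27.8 ± 1.28), which did not differ beyond their spread. NELFB (19.3 ± 1.14) and NELFE (19.2 ± 0.741) followed, also within their spread, then SUPT4H1 (15.6 ± 0.692), NCBP2 (13.4 ± 0.399) and NELFCD (12.8 ± 0.542). SUPT5H (11.3 ± 0.147), NCBP3 (6.26 ± 0.101) and NELFA (5.62 ± 0.297) were lowest. The order depended on the length used: with the annotation's canonical transcript, chosen as an alternative after the data were seen, SRRT stayed first at 45.5 per kb, NELFCD moved from seventh to second at 36 per kb, and NCBP3 was last at 7.21 per kb. By that length NELFCD (36 ± 1.53) and NELFE (35.2 ± 1.36) did not differ beyond their spread.

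Within each complex, the mean share in the summed CPM per kb differed by -1.09 (NELFA), 2.88 (NELFB), -2.64 (NELFCD), 0.86 (NELFE), 4.04 (SUPT5H), -4.04 (SUPT4H1), -3.08 (NCBP1), 3.06 (NCBP2) and 0.03 (NCBP3) percentage points between EAF1-mutant and wild-type libraries by exon union. By canonical transcript the value of NELFE was 1.95 and that of NCBP3 turned to -0.25. SUPT5H made up 43, 40.8 and 42.2% of DSIF RNA per kb in wild-type libraries and 45.5, 46.2 and 46.5% in EAF1-mutant libraries. NELFCD went from 21.4, 23.6 and 22.4% of NELF to 19.8, 20 and 19.8%, and NELFB from 35.1, 32.6 and 34% to 36.3, 37 and 37%. The mean level of NELFCD itself was 12.8 CPM per kb in wild-type and 13.2 in EAF1-mutant libraries, so its share fell while its own level did not. NCBP2 went from 28, 27.5 and 29.3% of the summed NCBP1, NCBP2 and NCBP3 to 31.8, 30.9 and 31.3%. None of these 4 shares overlapped between groups, with either length, nor did those of NELFA, SUPT4H1 and NCBP1. The share of NCBP3 overlapped with either length (13 to 13.4% against 12.9 to 13.5% by exon union). That of NELFE met at 34.1% by exon union. As background, the levels of 57.3% of all tested genes did not overlap between groups, and of 73.5% of those with at least 10 CPM. Which subunit had the larger share did depend on length, as SUPT5H averaged 42% of DSIF in wild-type cells by exon union and 54.7% by canonical transcript.

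**Figure D3:**
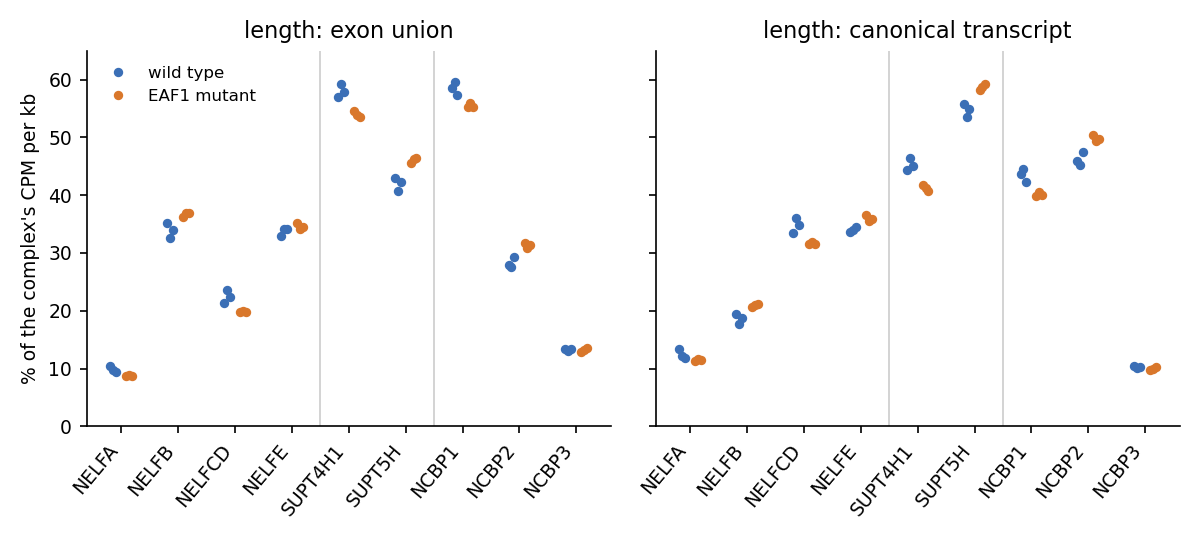
Share of each subunit, in percent of its complex's summed CPM per kb, for NELF (left), DSIF (middle) and the cap-binding proteins (right of each panel), in 3 wild-type (blue) and 3 EAF1-mutant (orange) libraries. The left panel divides by the union of exons and the right by the canonical transcript; SUPT5H had 40.8 to 43% in wild-type and 45.5 to 46.5% in EAF1-mutant libraries by exon union.

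The position of each gene was described by the other tested genes within 5 Mb. NELFB, with a log2 fold change of 0.34, lay among 155 such genes with a median of 0.38, of which 83 were higher and 6 lower at an adjusted p under 0.01. SUPT5H (0.44) lay among 325 genes with a median of 0.24, NELFE (0.26) among 346 with a median of 0.18, and NCBP2 (0.12) among 90 with a median of 0.25. All 10 genes lay among neighbors whose median, from 0.02 for SUPT4H1 to 0.38 for NELFB, was above the 0.01 of all tested genes, and NELFB and NCBP2 were below the medians around them. SUPT4H1 (0.20) stood above the median of its 137 neighbors (0.02) but below their upper quartile (0.24), as 27.7% of them had a larger log2 fold change. SRRT (-0.20) and NCBP1 (-0.11) were below the medians of theirs, 0.04 over 196 genes and 0.07 over 128. Of the genes around SRRT 79.6% had a larger log2 fold change, and of those around NCBP1 78.9%. NELFA, NELFCD and NCBP3 (0.05, 0.04 and -0.03) lay among 114, 127 and 288 genes with medians of 0.09, 0.04 and 0.10. The part of position in these values was not tested.

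**Figure D4:**
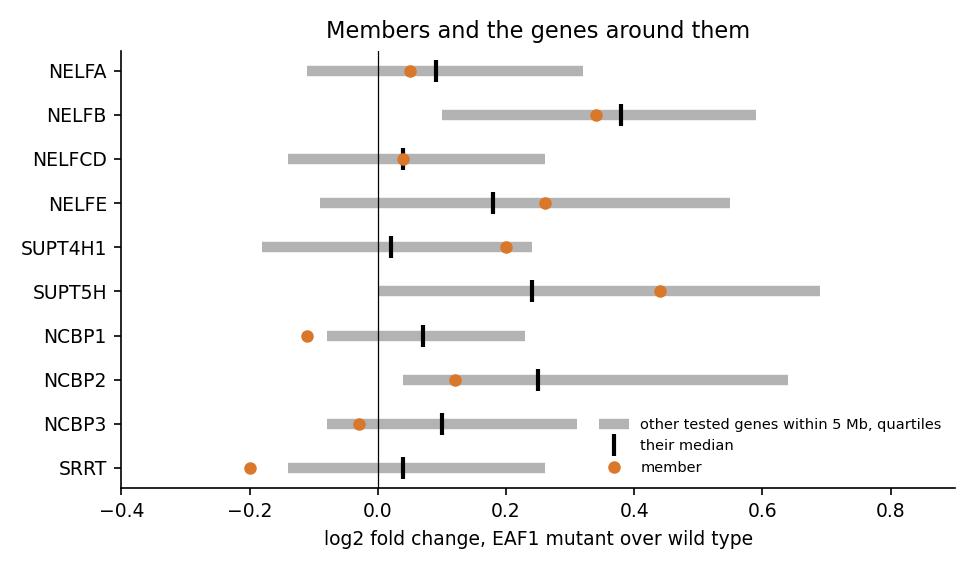
Log2 fold change of each of the 10 genes (orange), EAF1 mutant over wild type, with the median (black mark) and quartiles (grey bar) of the other tested genes within 5 Mb. NELFB at 0.34 lay close to the median of 0.38 around it, while SRRT at -0.20 lay below the lower quartile of -0.14.

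Genes that overlap the 10 or start within 2000 bases of one were looked at because the libraries came from a strand-specific kit but no source used here gives the strand setting of the counting. By the GENCODE starts, NELFE begins 78 bases from SKIC2, on the opposite strand, the helicase gene of the SKI complex that feeds RNA to the exosome. SKIC2 had 51.8, 48.3 and 50.3 CPM in wild-type and 69.6, 73.2 and 70.9 CPM in EAF1-mutant libraries, without overlap, and rose by a log2 fold change of 0.51 (adjusted p = 2.98e-10), or by 0.47 without wild-type replicate 2 and 0.49 without wild-type replicate 3 or EAF1-mutant replicate 2, below the fold limit, which it also missed with DESeq2 (0.50). SUPT4H1 shares 577 exonic bases, 27.8% of its exon length, with the antisense gene TSPOAP1-AS1, which was at 15.1 and 17.8 mean CPM (log2 fold change 0.24, adjusted p = 0.000826, or 0.0123 without wild-type replicate 1), so reads of the 2 genes may be mixed. SUPT4H1 also shares 1325 exonic bases (63.7% of its exon length) with ENSG00000285897 on the same strand, which is not among the 58395 genes counted. CTSZ shares 97.4% of the exonic bases of NELFCD on the opposite strand but was at 0.408 and 0.323 mean CPM. NCBP2-AS1 (142 shared bases, 4.86 and 5.53 mean CPM) overlaps NCBP2, and the microRNA genes MIR943 (2.15 and 2.31 mean CPM) and MIR1236 (0.162 and 0.206) lie in exons of NELFA and NELFE on the same strand. RPS16, which starts 207 bases from SUPT5H, varied within groups (96.6, 187 and 201 CPM, then 149, 199 and 205 CPM), unlike SUPT5H.

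C4orf48, NCBP2AS2 and TSTD2, which start 92, 80 and 300 bases from NELFA, NCBP2 and NCBP1 on the opposite strand, had log2 fold changes of 0.10, 0.10 and 0.06, none of which passed the test, though without wild-type replicate 2 C4orf48 turned to -0.05 and NCBP2AS2 stood at 0.01, and TSTD2 passed with library totals (0.17). Without wild-type replicate 1 TSTD2 stood at 0.03. STPG3-AS1, starting 1830 bases from NELFB, had 1.22, 1.37 and 1.57 CPM in wild-type and 2.6, 2.5 and 2.58 CPM in EAF1-mutant libraries and rose by a log2 fold change of 0.89 (adjusted p = 5.82e-06). A lncRNA gene without a symbol that starts 39 bases from NELFCD held too few counts to be tested. Another, ENSG00000231521, lies within NCBP1 on the opposite strand, shares no exonic base with it and was at 1.33 and 1.29 mean CPM.

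Promoter sequence was available for 9 of the 10 genes from RefSeq (GRCh38.p14, 250 bases before to 50 after the start). The GC box letters GGGCGG stood on either strand in 8 of the 9, against 45% of all 35116 promoters in that table. The ETS letters CCGGAAG were in the promoters of NELFA, NELFE and SUPT4H1 (10.3% of all promoters), the NRF1 core CGCATGCG in those of NELFB and NELFCD (2.02%), CCAAT in that of NCBP2 (34.6%) and TATAAA in 0 of 9 (11.5%). NELFB, which rose, and SRRT, which fell, are shown, as their upstream windows hold no annotated exon. These are the 100 bases before the RefSeq start, which can differ from the GENCODE start, on the gene's strand, at chr9:137255227-137255326 and chr7:100875003-100875102 (both plus strand), with motif matches in capitals.
NELFB: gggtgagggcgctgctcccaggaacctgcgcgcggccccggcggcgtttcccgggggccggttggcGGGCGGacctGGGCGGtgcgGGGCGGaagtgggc
SRRT: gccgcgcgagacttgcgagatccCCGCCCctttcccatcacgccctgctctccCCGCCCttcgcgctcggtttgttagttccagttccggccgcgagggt

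The GC box stood in the windows of both NELFB and SRRT, and a match is a description of the letters only.

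Other genes of the pathway were counted in 4 lists with 37 genes in all, and all 37 were tested. Of these, 0 were higher and 3 lower at the study's thresholds, and 7 were higher and 13 lower by the adjusted p alone. Of the tested genes with at least 10 CPM, 17.3% passed the study's thresholds, and 23.8% were higher and 36.7% lower by the adjusted p. The 3 were WDR82, MTREX and SKIC8, of which SKIC8 stayed within the fold limit with library totals (-0.42). The 7 depended on single libraries: 2 were higher without wild-type replicate 3, and 3, 4 and 4 without EAF1-mutant replicates 1, 2 and 3. With library totals 14 were higher and 9 lower. The median log2 fold change of the 37 was -0.05, equal to that of all tested genes with at least 10 CPM.

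Among 17 elongation factors, 2 rose and 5 fell by the adjusted p (median log2 fold change -0.09). MEPCE, which caps the 7SK RNA that holds P-TEFb inactive, had the largest log2 fold change, with 81.9, 76.1 and 80.1 CPM in wild-type and 95.3, 94.5 and 96.9 CPM in EAF1-mutant libraries (0.27, adjusted p = 3.32e-06). SKIC8, a subunit shared by the PAF1 and SKI complexes, had 67.6, 68.4 and 69.8 CPM in wild-type and 47.6, 46.4 and 47.8 CPM in EAF1-mutant libraries (log2 fold change -0.54, adjusted p = 4.79e-11). It lay at the bottom of the list, and the median of the 198 other tested genes within 5 Mb of it was -0.34. PAF1 itself rose (0.22), and the PAF1 complex genes CTR9 (-0.21), CDC73 (-0.28) and RTF1 (-0.15) fell, as did the transcript cleavage factor TCEA1 (-0.28). With library totals CTR9 (-0.09, adjusted p = 0.0678) and RTF1 (-0.04, adjusted p = 0.477) did not pass, and RTF1 also missed the limit without wild-type replicate 2 or without EAF1-mutant replicate 2 or 3 (adjusted p of 0.0124, 0.0383 and 0.0151). The P-TEFb kinase gene CDK9 had 18.2, 19 and 19.5 CPM and then 18.9, 19.7 and 19.9 CPM, which overlapped, though it passed with library totals (0.16, adjusted p = 0.00878). With library totals SUPT6H, CCNT1, CCNT2 and LARP7 were higher by the adjusted p as well. Higher calls in this list then outnumbered lower ones.

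Among 5 genes of cap formation, 3 rose and 0 fell (median 0.13). The 3 were the cap methyltransferase genes RNMT (0.19), CMTR1 (0.13) and CMTR2 (0.22), the last with 14.3, 14.8 and 13.8 CPM in wild-type and 17.2, 16 and 16.8 CPM in EAF1-mutant libraries. RAMAC, the activating subunit of RNMT, had the smallest value, -0.04 (adjusted p = 0.479, or -0.08 without wild-type replicate 2 and -0.02 without wild-type replicate 3), and the capping enzyme gene RNGTT was at 0.01 (adjusted p = 0.784). With library totals RAMAC turned to 0.07 and RNGTT passed (0.13, adjusted p = 0.0083). The 3 calls did not hold in every set of 5 libraries: RNMT missed the limit without wild-type replicate 1 or 3 or EAF1-mutant replicate 1 (adjusted p of 0.0302, 0.0129 and 0.0102), with a log2 fold change of 0.12 in the first case, and CMTR2 without wild-type replicate 3 or EAF1-mutant replicate 1 (0.0194 and 0.013) and with DESeq2 (0.0103). CMTR1 missed it without each library other than wild-type replicate 1 (adjusted p of 0.0109 to 0.0345) and without edgeR's filter (0.0115).

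Of 9 partners of the cap-binding complex and ARS2, 1 rose and 4 fell (median -0.07). MTREX, the helicase that works with the nuclear exosome, had 170, 176 and 166 CPM in wild-type and 96.6, 93.7 and 96.9 CPM in EAF1-mutant libraries, a log2 fold change of -0.83 (adjusted p = 9.44e-15). The 44 other tested genes within 5 Mb of MTREX had a median of -0.52. ZCCHC8, a scaffold of the nuclear exosome targeting complex in which MTREX acts, had the largest value, 0.15 (adjusted p = 0.00313), and its RNA-binding partner RBM7 was at 26.1 to 26.6 CPM and 25.3 to 27.3 CPM, which overlapped. CTIF (-0.38), KPNA2 (-0.24) and ZFC3H1 (-0.17) fell too by the adjusted p, though the groups of ZFC3H1 overlapped. ZCCHC8 missed the limit without wild-type replicate 1 or 3 or EAF1-mutant replicate 2 or 3 (adjusted p of 0.0144 to 0.0343). ZFC3H1 missed it without each library other than wild-type replicate 1 (adjusted p of 0.0153 to 0.0537), with limma-voom (0.0116) and with library totals (log2 fold change -0.05).

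Of 6 genes of the PP1-PNUTS phosphatase, which acts on SPT5, 1 rose and 4 fell (median -0.27). WDR82 had 162, 171 and 168 CPM in wild-type and 91.2, 89 and 91 CPM in EAF1-mutant libraries (log2 fold change -0.89, adjusted p = 2.64e-15). The 240 other tested genes within 5 Mb of WDR82, which lies on chromosome 3 as EAF1 does, had a median of -0.77, and those on chromosome 3 as a whole -0.32. PPP1CA had the largest value (0.14, adjusted p = 0.00954), while PPP1CB (-0.22), PPP1CC (-0.33) and TOX4 (-0.35) fell and the PNUTS gene PPP1R10 had 0.02 (adjusted p = 0.717). PPP1CA missed the limit without each library other than wild-type replicate 1 (adjusted p of 0.0166 to 0.0938, with a log2 fold change of 0.08 without wild-type replicate 2) and with DESeq2 (adjusted p = 0.0174). With library totals PPP1CB did not pass (-0.10, adjusted p = 0.0348) and PPP1R10 did (0.13, adjusted p = 0.007).

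**Figure D5:**
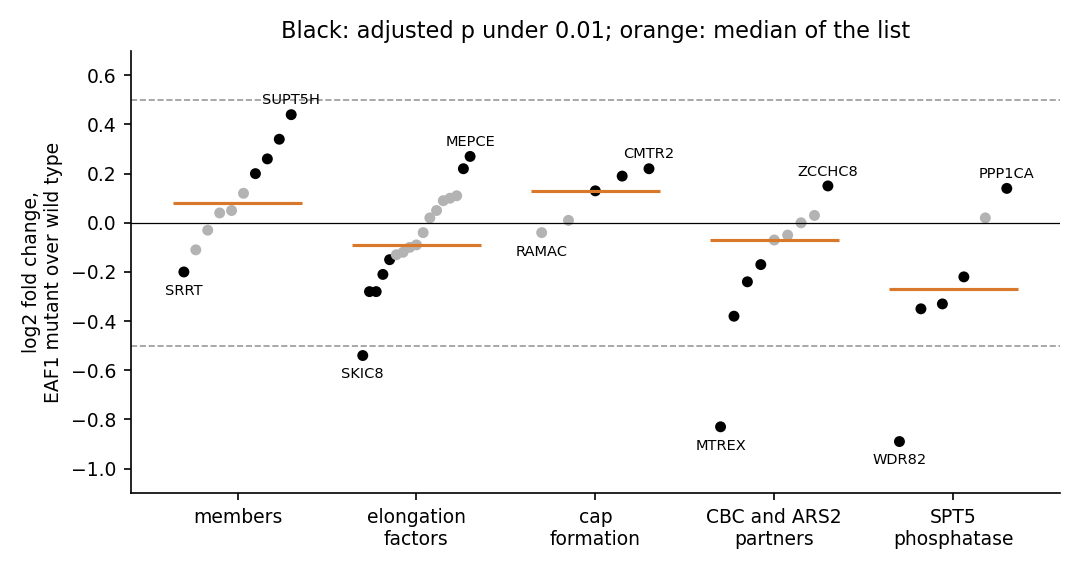
Log2 fold change, EAF1 mutant over wild type, of the 10 genes and of 37 other genes in 4 lists, with an orange line at each list's median, black for an adjusted p under 0.01 and dashed lines at the fold limit of 0.5. MTREX, WDR82 and SKIC8 lay below the lower line, at -0.83, -0.89 and -0.54, and the list medians ran from -0.27 to 0.13; with library totals 14 in place of 7 of the 37 genes were higher by the adjusted p.

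Markers were read to check the label of the cells. Of 6 genes known from HEK293 cells, all were detected, VIM was the most abundant, and their summed level was 497, 509 and 525 CPM in wild-type and 284, 282 and 291 CPM in EAF1-mutant libraries. VIM (374, 376 and 391 CPM against 197, 197 and 204 CPM) and NEFM (56.2, 65.9 and 65.1 CPM against 24.6, 25.2 and 25.6 CPM) fell past the study's thresholds (adjusted p = 5.66e-16 and 1.35e-15), and made up most of the difference in the sum. The mean CPM of the 2 groups were 53.4 and 48.1 for NEFL, 6.24 and 5.53 for LHX1 and 6.83 and 6.65 for INA, and the kidney developmental gene PAX2 was low throughout, with a higher mean in EAF1-mutant libraries (0.679 and 0.871) and overlapping groups. The groups of NEFL and LHX1 did not overlap. NEFL was lower by the adjusted p alone (0.00333, edgeR), but not with library totals or without some single libraries. Of 6 markers of other cells, PTPRC, CD3E, ALB and KRT5 stayed below 1 CPM in every library. The sum of the 6 was 5.2, 5.54 and 6.05 CPM and then 7.51, 7.63 and 8.43 CPM, most of it COL1A1 and GFAP. COL1A1 passed the study's thresholds (log2 fold change 0.54, adjusted p = 0.000567), or stood at 0.40 without wild-type replicate 1 and at 0.70 without wild-type replicate 3. GFAP was higher by the adjusted p alone (0.00458, edgeR), but not with DESeq2 or without some single libraries. The part of these differences in the values of the 10 genes was not tested.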

How the data were processed

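RNA-seq of total RNA depleted of ribosomal RNA was analysed for 3 wild-type and 3 EAF1-mutant libraries of HEK293T cells, grouped by their labels. Reads were aligned by the authors with HISAT2 (GRCh38), Rsubread assigned them to Ensembl genes, and the unnormalized counts were deposited; for trimming the paper names Trim Galore and the submitters' processing notes Trimmomatic 0.38. Libraries were made with a stranded kit, and no source used here gives the strand and multi-mapping settings of the counting. Of 58395 identifiers, 57754 matched GENCODE v44, and the others held 2.81% of the counts.

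Counts were filtered with filterByExpr, scaled by TMM and fitted by quasi-likelihood without covariates (edgeR 4.0.16, R 4.3.3), with Benjamini-Hochberg adjustment over 28025 genes. The edgeR step was also tested on simulated counts. Alternatives were DESeq2 1.42.0, limma-voom (limma 3.58.1), library totals, other filters and thresholds, a replicate block and each library left out. Ratios were tested by exact permutation in SciPy 1.17.1. Libraries of a group differed by more than counting noise. The paper says of its experiments in general that replicates were biological, and the labels do not say whether these libraries came from separate cultures; p-values measure the spread between these libraries.

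Named genes were the 10 genes, EAF1, pathway genes past both limits and each list's extremes, genes overlapping or starting within 2000 bases of one of the 10, and markers; other pathway genes, SUPT4H1 pseudogenes and NCBP2L were named after their values were seen. The genes and lists were chosen with earlier results of these data known. Guide sequence came from the study's supplement and exon sequence from GRCh38. The ELL ChIP-seq table was not used here.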

Additional observations from a re-analysis of the deposited data

How the results depend on the processing

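Scaling was the choice that moved most values. With library totals alone, the median over the 10 genes was 0.20 on the log2 scale in place of 0.08, 1 gene passed both limits in place of 0 (SUPT5H), 7 were higher by the adjusted p in place of 4 and 0 lower in place of 1, NCBP1 turned to 0.01, NCBP3 to 0.09 and RAMAC to 0.07, and 14 of the 37 pathway genes were higher by the adjusted p in place of 7. With 1 library left out, 4 of the genes whose log2 fold change the report gives turned sign, none of which had passed the test: NELFCD (-0.01 to 0.05), RNGTT (-0.01 to 0.04), PPP1R10 (-0.01 to 0.05) and C4orf48 (-0.05 to 0.24); the cause was not tested. NELFB, NELFE, SUPT4H1 and SUPT5H were higher at an adjusted p under 0.01 in all 12 alternative fits, and SRRT was lower in 11 of 12. For the 35 other genes whose change with TMM the text gives (the markers NEFL and GFAP left out), 374 pairs of a gene and an alternative kept direction and side of the adjusted p limit (6 of these crossed the fold limit of 0.5: SKIC2 in 4, SKIC8 and COL1A1 in 1 each), 36 no longer passed, 5 newly passed and 5 turned sign. With an adjusted p under 0.05, 5 of the 10 genes were higher in place of 4 and 2 lower in place of 1. With a log2 fold limit of 1, 1452 genes were higher and 698 lower in place of 3071 and 2624, and 0 pathway genes were lower in place of 3, as a stricter limit must give fewer. With 1 library left out in turn, 1 to 2 of the 10 genes were lower and 2 to 6 of the pathway genes higher by the adjusted p. Same-numbered libraries did not deviate together (correlations of -0.005, -0.017 and 0.01 over 28025 genes), and not every library correlated best with its own number, so the numbers do not pair them; with the replicate block, 5686 genes were higher and 5847 lower by the adjusted p, and 4 and 1 of the 10, with no change of call among them. With 3 libraries in a group, differences of the 10 genes inside the 95% intervals of the report cannot be resolved.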
